A study of Rattus norvegicus with 12 samples.

Results

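The Pit1 lineage genes described here are Pou1f1, Tshb, Prl, Ghrhr, Ghsr, Trhr and Drd2, a set chosen by gene symbol for their roles in the thyrotrophs, lactotrophs and somatotrophs of the anterior pituitary. Each of the 7 symbols belongs to 1 probe in the platform's annotation, so the set holds 7 of the 22523 probes on the array. Transcripts were measured in male Wistar rat fetuses collected on gestational day 20, whose mothers had either been dosed with TCDD in corn oil by mouth on day 15 of gestation or were controls. TCDD (2,3,7,8-tetrachlorodibenzo-p-dioxin) is the prototype dioxin and an agonist of the aryl hydrocarbon receptor. The dose is given as 1 µg/kg in the series text and as 1 mg/kg in the sample labels, and this conflict could not be settled from the sources used here. The 4 groups are pituitary after TCDD (replicates 1, 2 and 5), pituitary of controls (replicates 1, 2 and 3), hypothalamus after TCDD (replicates 1, 3 and 4) and hypothalamus of controls (replicates 1, 3 and 5), with 3 arrays each. The labels do not say what the controls were given, nor that replicates were taken from different litters. The p-values therefore reflect only how these arrays vary, and that variation may be technical.

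Pit1, encoded by Pou1f1, is the POU-homeodomain transcription factor that the somatotroph, lactotroph and thyrotroph cell types share and need in order to form. It binds the promoters of the growth hormone, prolactin and thyrotropin β-subunit genes, and it also drives the gene of the receptor for growth hormone-releasing hormone. The hypothalamus governs these cells through releasing hormones and dopamine, which reach the anterior pituitary by portal blood and act on receptors on the cell surface.

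Promoters are shown for the 3 genes on which the results turn: Ghrhr, the member that changed after TCDD, and the hormone genes Prl and Tshb. The sequences are RefSeq's, assembly GRCr8, and a promoter entry was at hand for 5 of the 7 members. Each run is the 250 bases before an annotated start, on the strand of the gene. Ghrhr has 2 annotated starts, on the plus strand at chr4:85830236-85830485 and chr4:85849655-85849904, while the Prl window is chr17:38298218-38298467 and the Tshb window chr2:192918055-192918304, both on the minus strand. Capitals mark the matches to 2 motifs searched on both strands: ATGNATA, the core of the Pit1 consensus, and GCGTG, the core of the aryl hydrocarbon receptor response element, which reads CACGC when it lies on the opposite strand.
Ghrhr, upstream start: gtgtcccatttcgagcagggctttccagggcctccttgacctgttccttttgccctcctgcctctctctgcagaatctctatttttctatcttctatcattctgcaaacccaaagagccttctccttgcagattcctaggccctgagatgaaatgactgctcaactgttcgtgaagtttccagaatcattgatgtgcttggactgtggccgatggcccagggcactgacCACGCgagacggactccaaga
Ghrhr, downstream start: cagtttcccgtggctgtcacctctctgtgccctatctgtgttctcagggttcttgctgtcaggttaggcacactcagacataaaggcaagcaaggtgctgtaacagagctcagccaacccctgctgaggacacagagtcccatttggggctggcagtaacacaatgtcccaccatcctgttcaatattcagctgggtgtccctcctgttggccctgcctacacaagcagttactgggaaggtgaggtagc
Prl: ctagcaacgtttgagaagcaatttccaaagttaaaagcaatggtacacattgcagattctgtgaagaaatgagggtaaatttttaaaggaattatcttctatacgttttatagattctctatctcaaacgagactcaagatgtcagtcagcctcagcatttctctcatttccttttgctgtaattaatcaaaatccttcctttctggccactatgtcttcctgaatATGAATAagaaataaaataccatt
Tshb: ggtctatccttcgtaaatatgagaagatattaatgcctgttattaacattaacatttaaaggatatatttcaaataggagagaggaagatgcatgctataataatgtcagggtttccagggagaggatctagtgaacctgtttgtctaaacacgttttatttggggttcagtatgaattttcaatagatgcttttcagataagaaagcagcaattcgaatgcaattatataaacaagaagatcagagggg
The Prl window held the Pit1 core once, from 24 to 18 bases before the start. The window of the upstream Ghrhr start held the aryl hydrocarbon receptor core once, on the opposite strand, from 21 to 17 bases before that start. The annotated extent of Ghrhr begins at chr4:85830345, inside this window, so the match lies within the annotated gene. The windows of the downstream Ghrhr start and of Tshb held neither motif, and neither did those of Ghsr and Drd2. Over all 33469 windows of this length in the table, 8.73% held ATGNATA and 25.9% held GCGTG. These matches describe letters in a window and are no evidence of binding. Which Ghrhr start was in use in these tissues was not measured.

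Levels below are given as raw bead intensity, in the units of the array reader, and as normalized log2 intensity, where a difference of 1 is a doubling. A probe counted as detected on an array when the authors' detection p-value was below 0.05. Differences are moderated tests of limma on the log2 scale, fitted to all 12 arrays and adjusted by the Benjamini-Hochberg method over the 13018 probes detected on at least 3 arrays, with a threshold of 0.05. Of the members, 6 entered the test. Ghsr was left out because it was not detected on any array. Array quality was even, with a raw median of 92.5 to 120.8 and 47.4% to 54.5% of probes detected per array. Exposure was visible in the pituitary, where Cyp1a1, the classical aryl hydrocarbon receptor target, read 2761.7, 3138.5 and 2318.7 raw units after TCDD and 75.4, 75.5 and 70 raw units, not detected, in controls. Cyp1a1 was not detected on any hypothalamus array, whereas Cyp1b1, another target of the receptor, read 445.1, 566.2 and 354.6 raw units in hypothalamus after TCDD and 196.6, 228.9 and 137.2 raw units in control hypothalamus.

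In the pituitary, Ghrhr was lower after TCDD, and no other member passed the test. Ghrhr encodes the receptor through which growth hormone-releasing hormone raises cyclic AMP in somatotrophs. Ghrhr read 601.7, 821.3 and 846.1 raw units in TCDD pituitaries, against 1329.9, 1476.8 and 1276.8 raw units in control pituitaries. On the normalized scale these were 8.99, 9.31 and 9.44 after TCDD and 10.30, 10.48 and 9.95 in controls. All 3 TCDD arrays lay below all 3 control arrays, with TCDD replicate 1 lowest and control replicate 3 the control nearest to the TCDD arrays. The difference was -0.99 ± 0.16 log2 units (SE, n = 3 each), with a 95% interval of -1.35 to -0.64, a 1.99-fold lower level (limma, adjusted p = 0.0152). Across the array 87 of 13018 tested probes passed in this comparison, which is 0.668%, and 0.284% passed as lower. Ghrhr stood at rank 44 by p and at rank 30 among the largest falls. In bulk tissue, fewer cells that carry the receptor and less receptor RNA per cell cannot be told apart.

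The call on Ghrhr was lost when single arrays were left out: the adjusted p was 0.0694 without control replicate 1, 0.0753 without control replicate 2 and 0.0723 without TCDD replicate 1, with differences of -0.97, -0.88 and -0.87 log2 units. It was also lost when the tissues were normalized and fitted separately (-0.95 ± 0.17 log2 units, limma, adjusted p = 0.123). The reported SE of 0.16 is drawn from all 4 groups, among them the hypothalamus groups, where Ghrhr was not detected. The direction was the same in all 22 alternatives, whose values ran from -1.15 to -0.77 log2 units, and the call held in 18 of them.

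**Figure D1:**
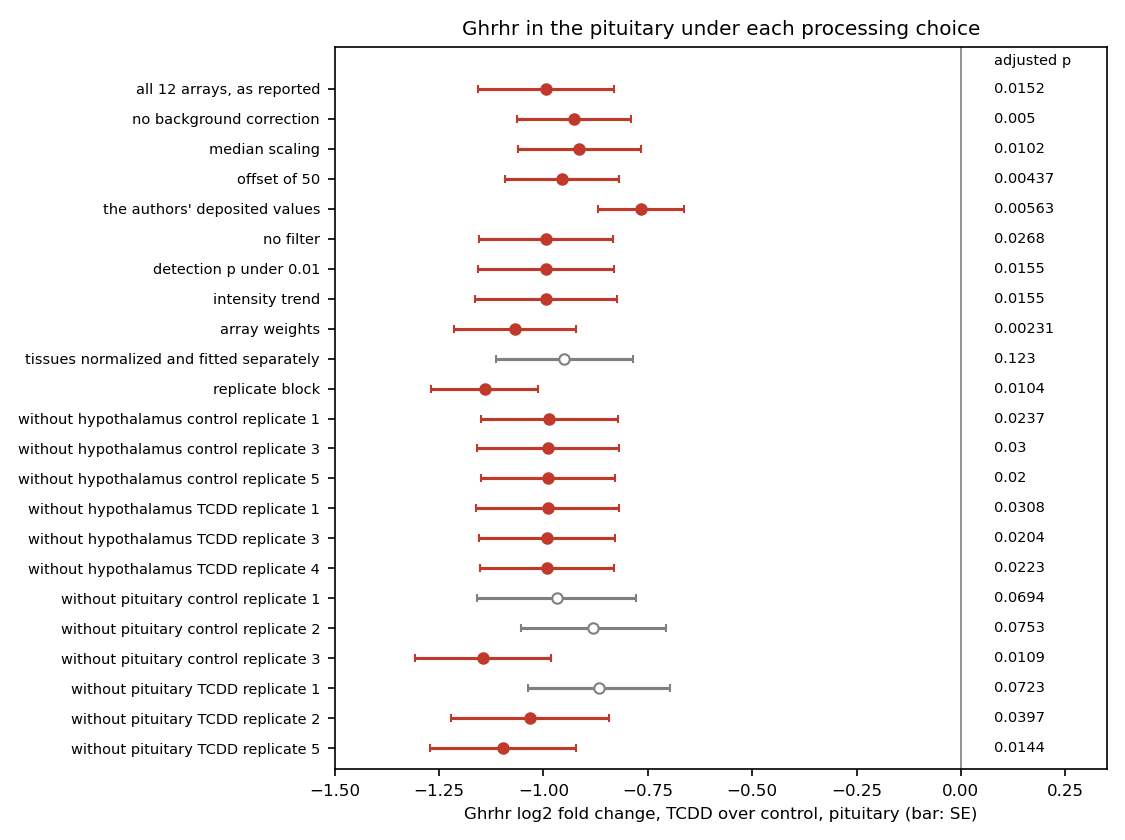
Log2 fold change of Ghrhr in the pituitary, TCDD over control (horizontal axis; points with bars of 1 SE), for the reported fit and each of 22 alternatives, with the adjusted p at the right. Filled points passed the threshold of 0.05 and open grey points did not; every point lies to the left of 0, between -1.15 and -0.77, and 4 alternatives are open.

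Markers of other cells also moved between the same pituitaries. All 3 tested gonadotroph markers fell after TCDD (Lhb, Fshb and Gnrhr), with a summed raw level over the listed probes of 1286.2 to 1520.9 in TCDD pituitaries and 3520.6 to 5259.4 in controls. Of 8 tested skeletal muscle markers 4 fell (summed raw level 1341.5 to 1846 after TCDD, 1812.9 to 2785.4 in controls), as did 2 of 5 mast cell markers (931.6 to 1108 after TCDD, 1330.6 to 2735.3 in controls) and 1 of 6 bone markers. The mast cell marker Mcpt10 was not detected on any TCDD array. Of 4 tested folliculostellate or stem cell markers Aldh1a1 rose, as did Pcsk2 among 4 corticotroph and melanotroph markers, and none of 5 blood and 10 hypothalamic neuron markers passed. None of the 12 tested neuron markers or 3 sensory neuron markers passed either, but TCDD replicate 5 stood apart, with a median of 11.07 log2 units over the neuron markers against 8.74 and 8.78 on the other TCDD arrays and 8.97 to 9.33 on the control arrays. The part of these cells in the Ghrhr result was not tested; without TCDD replicate 5 the Ghrhr difference was -1.10 log2 units (limma, adjusted p = 0.0144). A second somatotroph marker was Neurod4, a transcription factor of the NeuroD family. It was detected on all 6 pituitary arrays, at 173.3 to 226.3 raw units, and differed by -0.05 ± 0.15 log2 units (limma, adjusted p = 0.934). Of 4 listed somatotroph markers only Ghrhr and Neurod4 entered the test, and whether the number of somatotrophs changed was not tested.

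Pou1f1 itself was abundant in every pituitary and showed no change that passed the test. It read 1480, 1946.2 and 1707 raw units after TCDD and 2083.6, 1715.9 and 1852.3 raw units in controls, or 10.46, 10.70 and 10.58 against 11, 10.73 and 10.53 log2 units. The groups overlapped on both scales, and on the log2 scale control replicate 3 lay below 2 of the TCDD arrays. The difference was -0.18 ± 0.12 log2 units (95% interval -0.44 to 0.09; limma, adjusted p = 0.632).

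Neither hormone gene passed the test in the pituitary. Tshb, which encodes the subunit that gives thyrotropin its identity, read 25940.8, 35241.1 and 31237.8 raw units after TCDD and 38043.3, 36577.8 and 37952.1 raw units in controls. Its signal lay near the top of the reader's range, since the brightest probe of each pituitary array read 42815.9 to 49313.5, and how evenly the reader responds at this brightness was not tested. On the normalized scale the TCDD arrays read 14.65, 15.04 and 14.85 and the control arrays 15.08, 15.12 and 15.13. Every TCDD array lay below every control array, and the TCDD arrays were spread more widely (SD 0.19) than the controls (SD 0.03). The difference of -0.26 ± 0.37 log2 units did not pass (95% interval -1.06 to 0.53; limma, adjusted p = 0.856). This SE is drawn from all 4 groups and so includes the hypothalamus after TCDD, where Tshb had an SD of 1.01 near background. With the tissues normalized and fitted separately the difference was -0.24 ± 0.11 (limma, adjusted p = 0.427). With the authors' deposited values it was -0.26 ± 0.10 (limma, adjusted p = 0.268). Tshb and Ghrhr were the 2 of 6 tested members whose TCDD arrays all lay below the controls, an arrangement found for 10.8% of all tested probes.

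Prl, which encodes prolactin, varied more within the controls than between the groups. It read 2560.4, 3946.6 and 3702 raw units after TCDD and 3765.7, 5189.6 and 2803.4 raw units in controls, or 11.34, 11.84 and 11.83 against 11.91, 12.45 and 11.21 log2 units. On the log2 scale control replicate 2 was the highest and control replicate 3 the lowest of the 6 arrays, so that the controls spanned all of the TCDD values, whereas in raw units TCDD replicate 1 was the lowest. Its SD among controls was 0.62 log2 units, against a median SD of 0.11 over all tested probes in that group. The difference was -0.19 ± 0.28 log2 units (95% interval -0.80 to 0.43; limma, adjusted p = 0.867), and it turned to 0.11 without control replicate 2.

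Of the remaining receptors, only Drd2 was detected in the pituitary. Drd2, the dopamine receptor through which the hypothalamus restrains prolactin release, read 323.5, 360.1 and 321.3 raw units after TCDD and 311.8, 304.4 and 351.2 raw units in controls. The normalized levels were 7.95, 7.94 and 7.80 against 7.88, 7.85 and 7.84 log2 units, overlapping, with a difference of 0.04 ± 0.10 (95% interval -0.18 to 0.25; limma, adjusted p = 0.924). Trhr, the thyrotropin-releasing hormone receptor that couples to Gq in thyrotrophs and lactotrophs, was not detected on any pituitary array (89.4 to 93.6 raw units after TCDD, 87.5 to 107.1 in controls). Ghsr, the ghrelin receptor of somatotrophs, was not detected on any of the 12 arrays either, at 85.5 to 90.8 raw units in TCDD pituitaries and 76 to 92.8 in control pituitaries, and at 84.5 to 101.2 in TCDD hypothalami and 92.1 to 105.4 in control hypothalami. The presence of these 2 receptors in the fetal pituitary was therefore not detectable with these probes, and no fold is given.

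**Figure D2:**
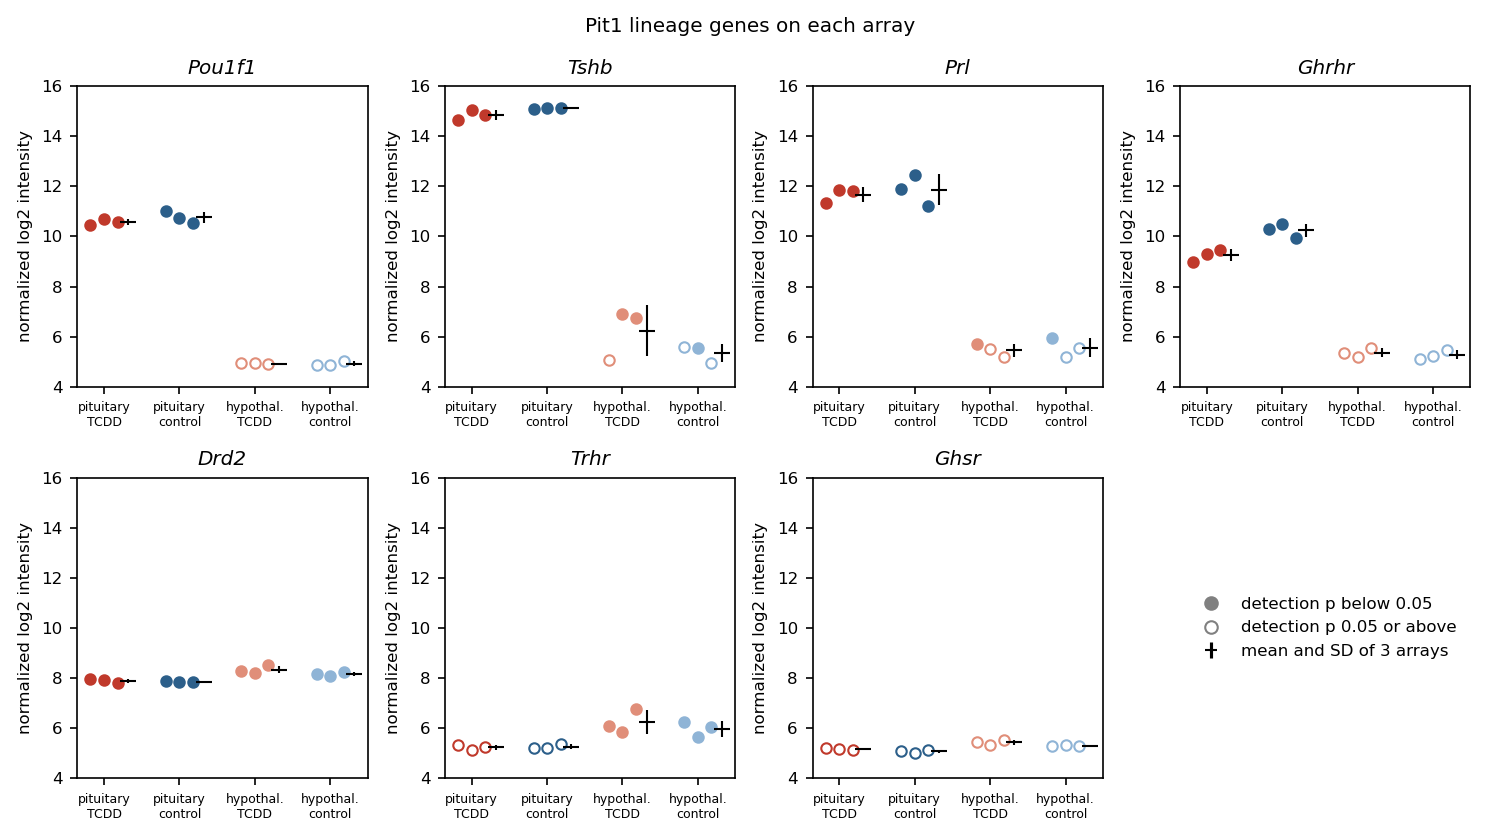
Normalized log2 intensity (vertical axis) of the 7 genes on each of the 12 arrays, by tissue and treatment, with the mean and SD of 3 arrays as crosses. Filled points have a detection p below 0.05 and open points do not; Ghrhr is the gene whose TCDD pituitaries (8.99 to 9.44) lie clearly below the controls (9.95 to 10.48), and Ghsr is open throughout.

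In the hypothalamus no member passed the test for TCDD against control (0 of 6 tested, against 3 of 13018 probes, 0.023%; limma). Pou1f1 and Ghrhr were among these 6 although not detected on any hypothalamus array, so a fall in them could not be seen. At an unadjusted p under 0.05 the count was 1 member, Tshb, and 1422 probes. Tshb read 84.7, 154.1 and 130.2 raw units in TCDD hypothalami and 111.7, 101 and 85.9 raw units in control hypothalami, and it was detected on 2 of the TCDD and 1 of the control arrays. Normalized levels were 5.09, 6.91 and 6.73 after TCDD and 5.59, 5.55 and 4.95 in controls. TCDD replicates 3 and 4 lay above every control, whereas TCDD replicate 1 lay among the controls on the log2 scale and below them in raw units. The difference was 0.88 ± 0.37 log2 units (95% interval 0.08 to 1.68; limma, adjusted p = 0.417). Without TCDD replicate 1 it was 1.47 log2 units and passed (limma, adjusted p = 0.0335), so that 1 array decided the call. In the other direction it was 0.50 with the replicate block (limma, adjusted p = 0.683) and 0.15 with the authors' deposited values (limma, adjusted p = 0.720).

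The other members with a signal in the hypothalamus differed little. Prl, at 110.9, 90.2 and 78.3 raw units after TCDD and 126, 86.4 and 118.7 in controls, was detected on 1 array of each group and differed by -0.11 ± 0.28 log2 units (limma, adjusted p = 0.924). Trhr was detected on all 6 hypothalamus arrays, with 6.10, 5.85 and 6.78 log2 units after TCDD and 6.24, 5.63 and 6.06 log2 units in controls, a difference of 0.27 ± 0.21 (limma, adjusted p = 0.687). Its TCDD replicate 4 was the highest array and the groups overlapped. Drd2 read 8.30, 8.21 and 8.50 log2 units after TCDD and 8.17, 8.07 and 8.25 log2 units in controls, also overlapping, with a difference of 0.17 ± 0.10 (limma, adjusted p = 0.561). Pou1f1 and Ghrhr were not detected on any hypothalamus array.

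**Figure D3:**
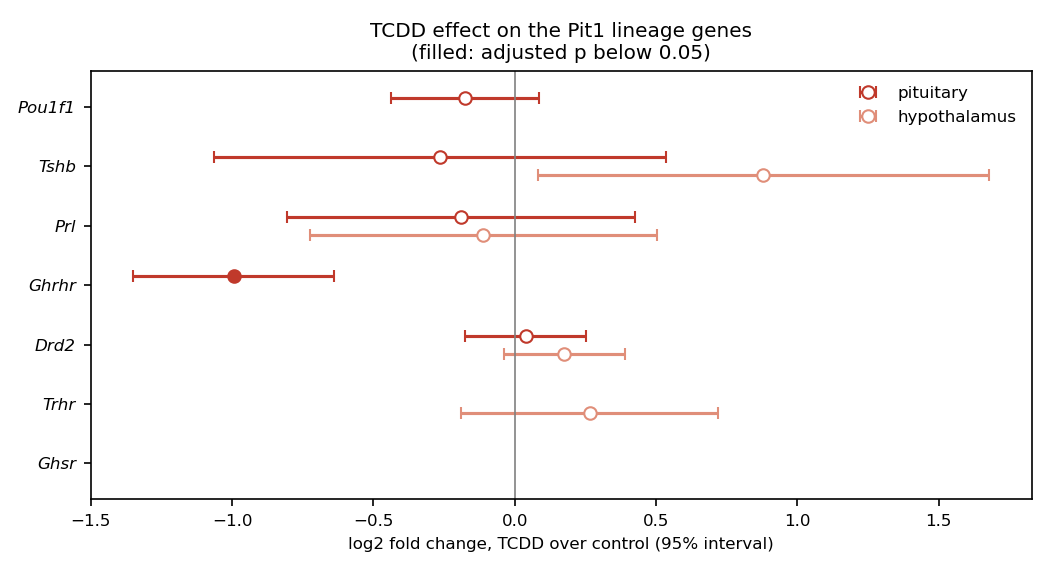
Log2 fold change of each gene, TCDD over control (horizontal axis; bars are 95% intervals), in the pituitary (dark) and the hypothalamus (light). No point is drawn where neither group of the tissue detected the probe; Ghrhr in the pituitary, at -0.99, is the filled point, meaning an adjusted p below 0.05, and the interval of Tshb in the hypothalamus runs from 0.08 to 1.68.

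The difference of the TCDD effect between the tissues was tested as an interaction term, and no member passed (0 of 6; 26 of 13018 probes, 0.2%, passed; limma). For Pou1f1 the hypothalamic side and for Trhr the pituitary side rested on arrays below detection. At an unadjusted p under 0.05 there were 2 members, Ghrhr and Tshb, and 1538 probes. For Ghrhr the effect in the pituitary minus that in the hypothalamus was -1.08 ± 0.23 log2 units (limma, adjusted p = 0.119), where the hypothalamic side rests on arrays below detection. For Tshb it was -1.14 ± 0.52 log2 units (limma, adjusted p = 0.418), and -1.74 without hypothalamus TCDD replicate 1 (limma, adjusted p = 0.0217). With the replicate block it was -0.53 (limma, adjusted p = 0.747) and with the authors' deposited values -0.41 (limma, adjusted p = 0.259). An effect on Ghrhr that differs between the tissues was thus not shown.

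The members were also compared between control pituitary and control hypothalamus. Tshb was 9.75 ± 0.37 log2 units higher in the pituitary (limma, adjusted p = 5.52e-10), and Prl was 6.29 ± 0.28 log2 units higher (limma, adjusted p = 1.97e-09). Each of these was detected on 1 of the 3 control hypothalamus arrays, so the size of the difference rests on readings near background. Pou1f1, which was not detected in control hypothalamus, was at least 36.3-fold higher in control pituitary (limma, adjusted p = 1.13e-11), and Ghrhr, likewise not detected there, at least 25.4-fold higher (limma, adjusted p = 2.59e-10). These bounds set the pituitary mean against the dimmest signal that counts as detected on the hypothalamus arrays, and they hold for this normalization. With the authors' deposited values, whose transform is unknown, the differences were smaller, at 7.28 for Tshb, 3.73 for Prl, 2.83 for Pou1f1 and 2.32 for Ghrhr, and all 4 still passed (limma, adjusted p = 4.90e-11, 2.28e-07, 2.47e-09 and 1.74e-08).

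Trhr and Drd2 went the other way. Trhr was at least 1.39-fold lower in the pituitary, where it was not detected, than in the hypothalamus, where it was detected on all 3 control arrays (limma, adjusted p = 0.00877). Drd2 was 0.31 ± 0.10 log2 units lower in the pituitary, at 7.86 ± 0.02 against 8.16 ± 0.09 log2 units (SD, n = 3 each; limma, adjusted p = 0.0141), but under median scaling the difference was -0.14 and did not pass (limma, adjusted p = 0.220), and with the authors' deposited values it turned to 0.04 (limma, adjusted p = 0.375). Of all tested probes 69.5% passed, 33.7% as higher and 35.9% as lower in the pituitary. Pou1f1, Ghrhr and Trhr met the detection filter through 1 tissue alone, which fixed the direction of their difference, so they are no independent check of the tissue labels. Prl is no independent check either. It was detected on 1 array of each hypothalamus group, too few for the filter, and so met it through the pituitary. Trhr and Ghsr gave no detected pituitary signal, and Drd2 was detected in both tissues. Trhr and Ghsr have 1 probe each, and whether these probes report the transcripts was not tested. The data therefore neither bear out nor contradict the place of these 2 genes in the set.

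Genes around the members in the pathway were counted in 6 lists. Among 18 tested transcription factors of the pituitary and the lineage (of 30 listed, 21 with a probe), 1 rose after TCDD in the pituitary, none fell and 17 did not pass. The median difference was -0.01 log2 units, against -0.01 over all tested probes. The factor that rose was Rxrg, the retinoid X receptor γ, which is known in mice as a thyrotroph regulator that represses the thyrotropin β-subunit gene in response to rexinoids. Rxrg read 3790.4, 4575.2 and 3801.2 raw units in TCDD pituitaries and 2375.7, 2356.2 and 2629.8 raw units in control pituitaries. Its groups did not overlap, which was so, in the same direction, for 9.16% of tested probes. It was 0.77 ± 0.11 log2 units higher after TCDD (limma, adjusted p = 0.00609). The value ran from 0.72 to 0.83 over 22 alternatives and missed the threshold in 1 of them, with the tissues fitted separately (limma, adjusted p = 0.0508). In the hypothalamus Rxrg differed by 0.27 ± 0.11 log2 units (limma, adjusted p = 0.405), and the difference between the tissues was not called for any factor on the list.

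Neither the signalling chains below the receptors nor their ligands held a call in the pituitary. Over the whole array 1501 of 13018 tested probes had an unadjusted p under 0.05 in this comparison. Of 20 tested genes of cyclic AMP signalling, through which Ghrhr and Drd2 act in opposite directions, none passed and 2 had an unadjusted p under 0.05. These were Prkacb, a catalytic subunit of protein kinase A, at 0.39 ± 0.08 log2 units (limma, adjusted p = 0.0584), and Gnao1, a Go α-subunit, at 0.77 ± 0.29 (limma, adjusted p = 0.322). Of 13 tested genes of Gq and calcium signalling, the route of Trhr and Ghsr, none passed and 2 had an unadjusted p under 0.05: the potassium channel gene Kcnh2 at 0.56 ± 0.15 (limma, adjusted p = 0.159) and Prkcb, a protein kinase C, at 0.49 ± 0.14 (limma, adjusted p = 0.188). The list medians were 0.02 and 0.07 log2 units.

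Among 11 tested genes for ligands and dopamine synthesis none passed in the pituitary and 3 had an unadjusted p under 0.05, with a list median of 0.07. Trh, which encodes thyrotropin-releasing hormone, read 137.3, 125.3 and 168.1 raw units in TCDD pituitaries and 225.1, 268.2 and 204.6 raw units in control pituitaries, without overlap, and differed by -1.06 ± 0.23 log2 units (limma, adjusted p = 0.0717). Nmu, the neuromedin U gene, differed by -0.89 ± 0.30 (limma, adjusted p = 0.265). Of 10 other receptors of these cells none passed and 2 had an unadjusted p under 0.05, Vipr2, a receptor for vasoactive intestinal peptide, at -0.50 ± 0.14 (limma, adjusted p = 0.161) and the growth hormone receptor gene Ghr at 0.32 ± 0.14 (limma, adjusted p = 0.388). Of 5 tested hormone and secretory products none passed and 1 had an unadjusted p under 0.05, Pcsk1n, an inhibitor of a prohormone convertase, at 0.29 ± 0.13 (limma, adjusted p = 0.406); Scg2, a secretogranin, differed by -0.23 ± 0.16 (limma, adjusted p = 0.639). The medians of these 2 lists were 0.08 and 0.05 log2 units.

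In the hypothalamus no gene of any of the 6 lists passed after TCDD (limma). At an unadjusted p under 0.05 the counts were 4 of 18 transcription factors and 4 of 20 cyclic AMP genes. The other counts were 1 of 13 Gq and calcium genes, 1 of 10 other receptors, and none among ligands or products. Over the whole array 1422 of 13018 tested probes had an unadjusted p under 0.05 in this comparison. The hypothalamic genes that feed the members are named for their role, after their values were seen. Ghrh, which encodes the ligand of Ghrhr, read 358.5, 361.4 and 351.9 raw units in TCDD hypothalami and 524.8, 403.2 and 408.1 raw units in control hypothalami. After normalization these overlapped, at 8.34, 8.56 and 8.77 against 8.93, 8.61 and 8.36 log2 units, a difference of -0.07 ± 0.17 (limma, adjusted p = 0.917). Sst, the gene of somatostatin, which inhibits somatotrophs, differed by 0.12 ± 0.28 (limma, adjusted p = 0.920). Trh differed by -0.05 ± 0.23 (limma, adjusted p = 0.963). Th, tyrosine hydroxylase of dopamine synthesis, differed by -0.03 ± 0.23 (limma, adjusted p = 0.980).

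The lists were counted between the control tissues as well, where genes such as Pitx1, Th and Ghrh, detected in the controls of 1 tissue alone, met the filter through that tissue. Of 11 tested ligand and dopamine genes 8 were lower in the pituitary and 1 higher. Th was at least 29.3-fold lower and Ghrh at least 8.74-fold lower, neither being detected in control pituitary, while the difference of Sst was -5.54 ± 0.28 and that of Trh -3.23 ± 0.23 log2 units. Nmu was the exception, 6.0 ± 0.30 log2 units higher in the pituitary. Of 18 transcription factors 11 were higher and 4 lower, led by Pitx1, at least 141-fold higher, and Thrb, a thyroid hormone receptor through which Tshb is repressed, 3.62 ± 0.13 log2 units higher, whereas Thra was lower, at -1.28 ± 0.09. Of 10 other receptors 3 were higher and 6 lower, among them the somatostatin receptor gene Sstr1 at -3.91 ± 0.19. Of 20 cyclic AMP genes 5 were higher and 12 lower. The probe used for Gnas, the gene of the Gs α-subunit that Ghrhr uses, was 4.29 ± 0.15 higher. Gnai1, an inhibitory α-subunit, was at -3.36 ± 0.20. Of 13 Gq and calcium genes 4 were higher and 4 lower, and of 5 hormone and secretory products 4 were higher, led by Dlk1, a growth regulator made in pituitary endocrine cells, at 3.04 ± 0.12. Adjusted p ran below the threshold for each of these (limma), as it did for 69.5% of all tested probes.

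**Figure D4:**
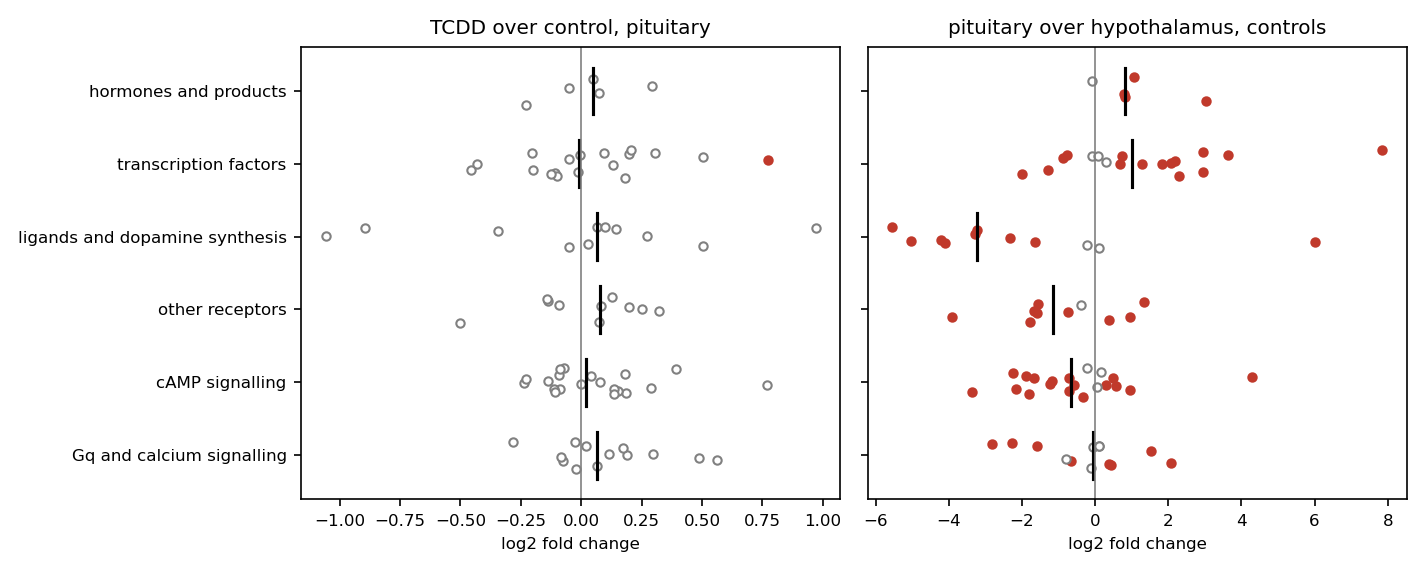
Log2 fold change (horizontal axis) of every tested gene of the 6 lists, TCDD over control in the pituitary (left) and control pituitary over control hypothalamus (right); black bars are list medians and filled points have an adjusted p below 0.05. On the left Rxrg, at 0.77, is the filled point, while on the right most points are filled and the ligand genes lie mainly to the left of 0, with a median of -3.23.

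Finally, genes with the same pattern as a member over the 6 pituitary arrays were sought for Ghrhr and for Prl, the members that passed the TCDD test or ranged over more than 1 log2 unit. Likeness was the root-mean-square difference between the deviations of a gene and of the member from their own pituitary means, so a small value means a close match. The nearest to Ghrhr was Mal2, a membrane protein of vesicle transport, at 0.109 log2 units, then Abcc8, the sulfonylurea receptor, at 0.115, and Upp1, uridine phosphorylase, at 0.185. Over all candidates the median was 0.556, and the deviation of Ghrhr itself was 0.538. These genes were picked for their likeness, so their own TCDD differences of -0.79 (Mal2), -1.07 (Abcc8) and -0.76 (Upp1) log2 units are descriptions. The nearest to Prl was Pde10a, a phosphodiesterase, at 0.0563, then Terf1, a telomere-binding protein, at 0.138, and Spink4, a peptidase inhibitor, at 0.160, where the median was 0.432 and the deviation of Prl 0.404. All 4 shared the high value of control replicate 2 and the low value of control replicate 3. Spink4 read 5.40 log2 units on control replicate 3, below the lowest detected signal of that array (5.53), so its pattern rests partly on background.

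**Figure D5:**
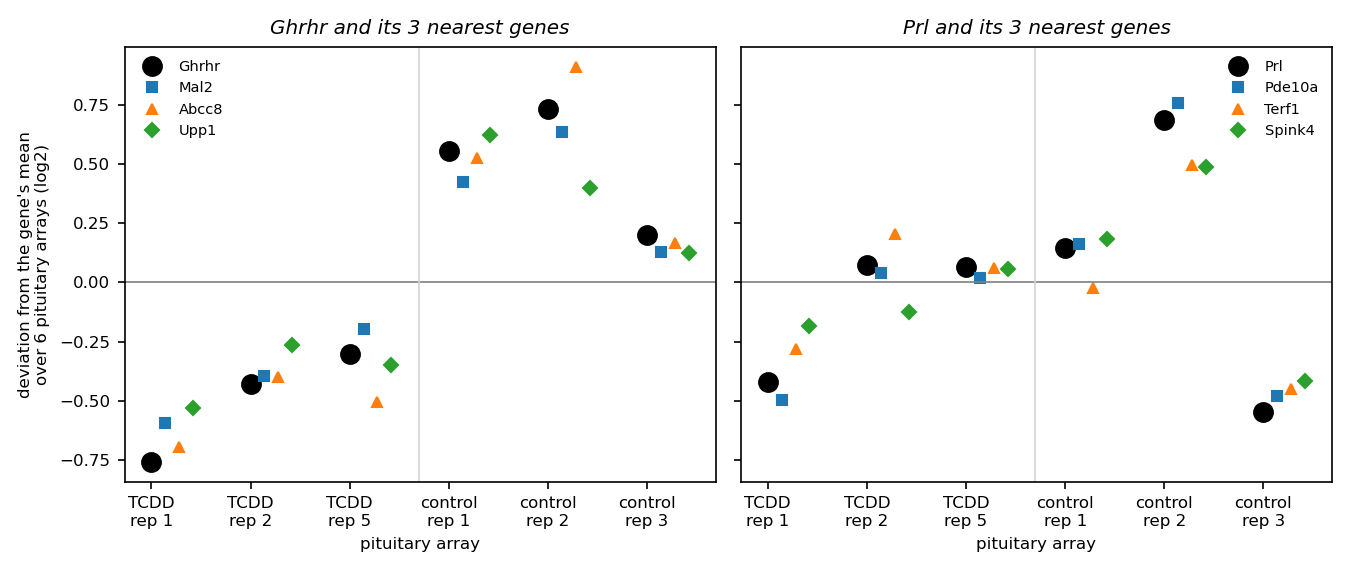
Deviation from the gene's own mean over the 6 pituitary arrays (vertical axis, log2) on each array, for Ghrhr (left) and Prl (right) with the 3 nearest genes of each. Ghrhr and its neighbours are below 0 on the TCDD arrays and above 0 on the controls; Prl and its neighbours peak on control replicate 2 and are lowest on control replicate 3 or TCDD replicate 1.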

How the data were processed

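The study used Illumina RatRef-12 BeadChips, 1-colour arrays, for 12 samples whose 4 groups of 3 come from the sample labels. Per the file headers, the deposited non-normalized table gives a bead intensity and a detection p-value for each probe and array. The scanner software was not named in those sources. The authors' other deposited table holds processed values that look like log2. Within each array its values order the probes just as the intensities do; its arrays have a common distribution per tissue (medians 7.91, hypothalamus, and 7.89, pituitary). Its transform and centring stay unknown, and it was tried only as an alternative source.

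The intensities were normalized by the neqc function (limma 3.58.1, R 4.3.3), that is, background correction based on the detection p-values, an offset of 16, quantile normalization over all arrays and log2. The offset makes fold changes of dim probes smaller, and quantile normalization makes the tissues share a distribution. Only probes reaching a detection p under 0.05 on 3 or more arrays were tested, 13018 of 22523. The limma fit had 4 group means without covariates (8 residual, 4.19 prior degrees of freedom); tests were two-sided and moderated, adjusted by Benjamini-Hochberg within each comparison, with a threshold of 0.05. The script was tested on simulated data. The number of arrays limits the precision. No 2 arrays held identical columns, and arrays of a group correlated at 0.990 to 0.996.

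Symbols are those of the platform's annotation (13793 probes with 1 symbol, 8730 with none). Where a listed gene had several tested probes, its test result is that of the probe with the highest mean normalized level over all arrays. A bound in place of a fold divides the brighter group's mean by the dim group's mean of, on each array, whichever is higher: the lowest detected signal or the probe's own. The members, the pathway lists and the marker lists were chosen with earlier results of these data known, so no list counts as independent support. All members are named; so are, in each list, the genes that passed (at most 6 by p) or otherwise the 2 of smallest p, and the 3 nearest genes by likeness. The alternatives changed the background step, scaling, offset, filter, variance model, array weights, source of the values, joint fit or replicate block, or left out 1 array.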

Additional observations from a re-analysis of the deposited data

How the results depend on the processing

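The number of members that passed in the pituitary after TCDD was 1 in the reported fit and 0 with the tissues fitted separately, and 0 to 1 when 1 array was left out; the cause was not tested. In the hypothalamus and in the difference between the tissues it was 0, and 0 to 1 without 1 array (Tshb, without hypothalamus TCDD replicate 1). Over all probes, the 87 pituitary calls became 218 with the authors' deposited values (80 shared), 231 with array weights (87 shared), 21 with the tissues fitted separately (20 shared), 40 with the replicate block (38 shared), and 43 to 93 without 1 array. The 3 hypothalamus calls became 0 with no background correction, the authors' values, separate tissues or the replicate block, 1 with median scaling or an offset of 50, and 0 to 16 without 1 array. The 26 calls for the difference became 5 with the replicate block and 10 to 32 without 1 array. With the authors' values the pituitary calls split into 94 higher and 124 lower (43.1% higher, against 57.5% reported), and the tissue calls into 5114 and 3638 (58.4%, against 48.4%).

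Signs that turned belong to values that did not pass, except Drd2 between the tissues (0.041 with the authors' values). Prl ran from -0.51 to 0.11 in the pituitary, from -0.30 to 0.084 in the hypothalamus and from -0.40 to 0.22 in the difference when 1 array was left out, and in the hypothalamus it was 0.016 with array weights and 0.15 with the replicate block. Trhr in the hypothalamus ran from -0.0029 to 0.46, and the Drd2 difference was 0.0048 with median scaling.

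Within a tissue, same-numbered TCDD and control arrays did not vary together. Their deviations correlated at 0.04 and 0.02 in the pituitary and at -0.07 and 0.11 in the hypothalamus. Only 2 numbers are shared in each tissue, and the labels tie no number to a litter. Whether pituitary and hypothalamus arrays of the same number and treatment vary together was not tested. The reported fit treated them as independent. With the replicate block Ghrhr was -1.14 (limma, adjusted p = 0.0104), and no member's call changed. A slide block was not run, since the headers name no slide. Trhr was not detected in the pituitary, nor were Pou1f1 and Ghrhr in the hypothalamus. For these 3 genes the comparison between the control tissues allows a bound but no fold. Within the tissue that did not detect them, the TCDD comparison allows neither. Ghsr, not detected on any array, allows neither in any comparison.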

Other observations

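The probe annotated to Cga, the α-subunit gene that thyrotrophs and gonadotrophs share, read 96.9, 97.6 and 90.4 raw units in TCDD pituitaries, none detected, and 104.3, 125 and 98.7 raw units in control pituitaries, of which 2 were detected. In the hypothalamus it read 73.9 to 84.2 raw units after TCDD and 73.9 to 86.7 in controls, with no array detected. It was therefore not tested. Whether this probe reports the transcript was not tested, so nothing is drawn from it about the level of the α-subunit. No probe carries the symbol Gh1 of growth hormone, so the somatotroph lineage is seen here through Ghrhr and Neurod4.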
